A study of Mus musculus with 4 samples.

Results

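The transcripts of 10 plasma membrane amino acid transporters (Slc1a4, Slc1a5, Slc3a2, Slc7a1, Slc7a5, Slc7a6, Slc38a1, Slc38a2, Slc38a4 and Slc43a2) were compared between palmitate-treated and control myoblasts. The genes were listed by name, from families that carry neutral and cationic amino acids, and their probes were found through the RefSeq accession of each spot. All 10 were among the 19751 genes with a named probe on the array, by 14 probes in all. Of these, 13 probes of 9 genes were bright enough to be tested, among 24169 tested probes and 13712 tested genes of the whole array. The rule used no measured ratio, although earlier results of these data were known when the genes were listed.

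The cells were C2C12 myoblasts, a line of mouse satellite cells from thigh muscle that proliferates in serum and can fuse into myotubes. Proliferating cultures received palmitate at 0.1 mmol/l for 48 h in medium with 5% foetal bovine serum, and control cultures received the ethanol and fatty acid-free albumin that carried it. The sample labels name another medium for the control, with 10% serum written as HS. The media may thus have differed between the groups in the amount and the kind of serum. RNA of 4 control and 4 palmitate cultures, numbered in the labels as biological replicates 1 to 4 and harvested on day 3 of proliferation, was hybridised in pairs to 4 two-colour Agilent arrays. Every array carried the control with cyanine-3 and the palmitate culture with cyanine-5, so treatment and dye cannot be told apart for any transporter. Nothing in the labels says how the cultures of a number were paired or whether they were grown independently beyond the word biological, and p-values measure the spread between these 4 arrays.

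Amino acid transporters fall into a few transport systems. Sodium-coupled carriers of the Slc38 family accumulate small neutral amino acids such as glutamine and alanine. Some members of the Slc1 and Slc7 families are exchangers that trade these for other amino acids. The heavy chain encoded by Slc3a2 brings several Slc7 light chains to the cell surface. Leucine and arginine that enter by these routes are read by the mTORC1 pathway, which drives protein synthesis in muscle cells. Several of these genes are known targets of the amino acid response, in which the transcription factor ATF4 acts when amino acids run short.

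Promoters of the 3 transporters with the most marked ratios for which RefSeq sequence was at hand are shown, so that the binding letters of ATF4 can be looked for in them. RefSeq promoters (assembly GRCm38.p6, 250 bases before to 50 bases after an annotated start, in the direction of the gene) were matched for 7 of the 10 genes, 12 promoters in all. The letters TGATGNAA, the core of the composite site of C/EBP and ATF factors, were searched on both strands, with overlapping matches allowed. They occurred in 1304 of 32851 mouse promoters (3.97%) and in 1 of the 12 transporter promoters, that of Slc1a4. Capitals mark the match, which reads TTGCATCA on the strand shown and begins at base 247. No match means only that the letters are not in this window.
Slc1a4 promoter: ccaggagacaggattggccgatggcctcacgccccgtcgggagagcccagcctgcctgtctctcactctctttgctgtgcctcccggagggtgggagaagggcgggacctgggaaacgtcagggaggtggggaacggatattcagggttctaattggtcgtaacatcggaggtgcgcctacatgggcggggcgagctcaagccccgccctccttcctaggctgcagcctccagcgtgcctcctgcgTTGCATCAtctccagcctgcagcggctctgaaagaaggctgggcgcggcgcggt
Slc38a2 promoter: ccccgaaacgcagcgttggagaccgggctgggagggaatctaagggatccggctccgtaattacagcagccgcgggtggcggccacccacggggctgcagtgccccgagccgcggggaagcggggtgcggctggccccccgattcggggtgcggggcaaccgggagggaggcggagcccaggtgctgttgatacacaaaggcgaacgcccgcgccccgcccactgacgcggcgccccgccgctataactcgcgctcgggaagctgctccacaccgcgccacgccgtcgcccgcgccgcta
Slc7a1 promoter, start further along the gene: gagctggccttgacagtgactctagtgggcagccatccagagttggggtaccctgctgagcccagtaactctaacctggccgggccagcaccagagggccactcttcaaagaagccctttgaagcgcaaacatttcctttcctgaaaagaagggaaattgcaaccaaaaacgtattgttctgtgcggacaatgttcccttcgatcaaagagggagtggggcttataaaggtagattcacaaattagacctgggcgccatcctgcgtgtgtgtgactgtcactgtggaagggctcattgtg
Slc7a1 promoter, first start: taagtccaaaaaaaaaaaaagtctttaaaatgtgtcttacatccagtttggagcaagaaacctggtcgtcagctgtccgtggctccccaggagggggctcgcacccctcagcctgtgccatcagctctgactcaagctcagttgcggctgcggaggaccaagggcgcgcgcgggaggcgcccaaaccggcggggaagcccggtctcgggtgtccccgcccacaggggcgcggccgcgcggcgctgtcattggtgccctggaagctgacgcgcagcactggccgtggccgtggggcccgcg
The Slc1a4 promoter lies at chr11:20332664-20332963, the Slc38a2 promoter at chr15:96699679-96699978 and the Slc7a1 promoters at chr5:148392766-148393065 and chr5:148399855-148400154, all on the minus strand. GC content was 65.0% in the Slc1a4 promoter and 73.0% in that of Slc38a2, against a median of 52.7% over all promoters. The 2 Slc7a1 promoters had 51.7% and 65.0%.

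Replicate 1 stood apart from the other arrays before any transporter was considered. Across the tested probes (not independent of each other), the palmitate over control log2 ratios of replicate 1 correlated with the mean of the other 3 arrays at -0.076, while pairs among replicates 2 to 4 correlated at 0.68 to 0.77. A 28S ribosomal RNA probe (Rn28s1) had a log2 ratio of 1.42 on replicate 1 and of -3.35 to -2.14 on the others, and the part of this difference in the transporter values was not tested. Transporter results are therefore given with all 4 arrays and without replicate 1. Replicate 1 was singled out by the ratios of these same arrays, so p-values without it may be too small. They describe 3 selected arrays. With replicate 2, 3 or 4 left out instead, 0 transporter probes passed the adjusted p. On the 4 arrays 57.6 to 64.0% of probes were called well above background for the control cultures and 61.9 to 70.7% for the palmitate cultures, and precision is limited by how few arrays there were. Of 8 myoblast markers, 8 were tested, as were 6 of 7 myotube markers. Of 9 markers of adipocytes, macrophages, endothelium and epithelium on the array, 2 (Adgre1 and Pecam1) were tested, and Adipoq, Plin1, Lep, Cdh5 and Krt8 were not well above background on any array. At an unadjusted p under 0.05 the myoblast markers Vim, Ncam1 and Myod1 were higher with palmitate in limma, with mean log2 ratios of 1.00, 0.37 and 0.24 (3 of 8 markers, none lower). So were the myotube markers Myh3 and Myog, with 0.32 and 0.30 (2 of 6, none lower). These are values of the brightest probes. The other tested probes of Ncam1 gave means of 0.04 and 0.21 and did not pass this limit. Over all genes 24.2% passed this limit in either direction, and the part of these markers in the transporter values was not tested.

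With all 4 arrays, 0 of the 13 transporter probes passed an adjusted p of 0.05 in limma, as did 0 of all 24169 probes (0.00%). At an unadjusted p under 0.05, 3 of the 13 passed (23.1%), close to the share over all tested probes (21.9%). Counted by the brightest probe of each gene, Slc7a1 and Slc38a1 were lower (2 of 9 genes, against 13.3% of all genes) and Slc1a4 was higher (1 of 9, against 10.8%). Without replicate 1, 4 of the 13 probes passed the adjusted p (30.8%), against 18.0% of all probes. These were Slc7a1 and Slc38a1, which fell (2 of 9 genes, against 9.84% of all genes), and Slc1a4 and Slc38a2, which rose (2 of 9, against 8.76%). With a fold of at least 1.6 as well, 1 of the 13 (Slc7a1) passed without replicate 1, against 5.41% of all probes. With so few members these shares do not set the transporters apart from the other genes of the array.

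**Figure D1:**
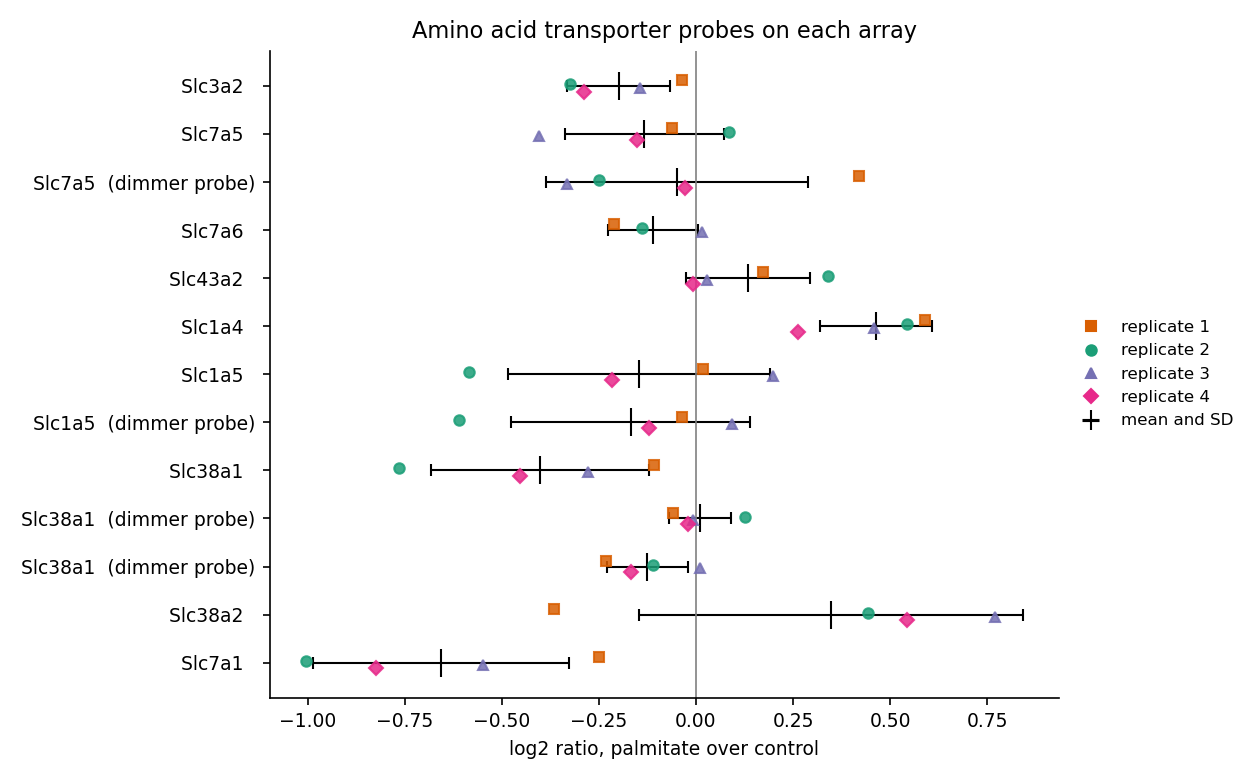
Log2 ratio of palmitate over control (horizontal axis) for each of the 13 tested transporter probes (rows, dimmer probes of a gene under its brightest), with 1 point per array and the mean with its SD in black. The Slc1a4 points lie between 0.26 and 0.59 and the Slc7a1 points between -1.01 and -0.25, while the replicate 1 square of Slc38a2 lies on the opposite side of 0 from the other arrays.

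Slc7a1 encodes CAT1, the main carrier of arginine and lysine in most growing cells, and gave the lowest ratio of all the members. Its log2 intensity was 14.49, 14.42, 14.59 and 14.68 in control replicates 1 to 4 and 14.24, 13.41, 14.04 and 13.85 in the palmitate cultures. Every palmitate value lay under every control value. Among the 13 transporter probes this was the case for 1 (6.79% of all tested probes had palmitate below control without overlap, and 5.51% above it, against 0 transporter probes). The log2 ratios on the arrays were -0.25, -1.01, -0.55 and -0.82, a mean of -0.66 ± 0.33 (SD, n = 4), which corresponds to a level 1.58 times lower with palmitate. Replicate 1 gave the smallest difference and replicate 2 the largest. The 95% interval from limma was -0.98 to -0.33, with an adjusted p of 0.118 and an unadjusted p of 0.00237, which ranked 469 among all 24169 tested probes by p. Without replicate 1, Slc7a1 fell by 0.79 on the log2 scale (adjusted p = 0.00756 in limma), or 1.73-fold. With replicate 2, 3 or 4 left out instead, its adjusted p in limma was 0.44, 0.338 and 0.308. The exact sign-flip test over 4 arrays gave p = 0.125 for Slc7a1, the lowest value that 4 arrays allow.

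Slc1a4 encodes ASCT1, a sodium-dependent exchanger of alanine, serine, cysteine and threonine. Its log2 intensity was 10.73, 10.55, 11.17 and 11.44 in the control cultures and 11.32, 11.10, 11.63 and 11.71 in the palmitate cultures. The ranges of the groups overlapped, since the 4 controls differed from each other by more than the cultures of any 1 array did. Within each array the palmitate culture was the higher one, by log2 ratios of 0.59, 0.54, 0.46 and 0.26. The mean was 0.46 ± 0.14 (SD, n = 4), a ratio of 1.38, and its SD was the second smallest of the brightest probes measured on 4 arrays, after that of Slc3a2. The 95% interval was 0.25 to 0.68, and limma gave an unadjusted p of 0.00155 and an adjusted p of 0.118. Replicate 1, which departed from the other arrays over the probes at large, did not do so for Slc1a4. Without it Slc1a4 rose by 0.42 (adjusted p = 0.0281 in limma).

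Slc1a5 encodes ASCT2, the glutamine exchanger related to ASCT1, and showed no shared direction. The brightest of its 2 probes had log2 ratios of 0.02, -0.58, 0.20 and -0.22, with a mean of -0.15 ± 0.34 (SD, n = 4) and an adjusted p of 0.557 in limma. Palmitate was lower on 2 of 4 arrays, and the interval of -0.48 to 0.18 includes differences of either sign. The dimmer probe gave -0.03, -0.61, 0.09 and -0.12, so both probes put replicate 2 lowest and replicate 3 highest. Log2 intensity of the brightest probe was 10.56 to 10.84 in control and 10.25 to 10.76 in palmitate cultures, and the groups overlapped.

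The Slc38 genes encode the sodium-coupled carriers of system A, and the 2 that were measured lay on opposite sides of 0. Slc38a2 encodes SNAT2, known for its induction by amino acid shortage and by hypertonic medium. Its log2 intensity was 14.38, 14.34, 14.23 and 14.47 in control cultures and 14.01, 14.78, 15.00 and 15.01 in palmitate cultures. In replicates 2, 3 and 4 the palmitate culture was higher than all controls, and in replicate 1 it was lower than all controls. The log2 ratios were accordingly -0.37, 0.44, 0.77 and 0.54, with a mean of 0.35 ± 0.50 (SD, n = 4), the widest spread of any transporter. With all arrays the adjusted p was 0.318 in limma, and the interval was -0.10 to 0.79. Without replicate 1, Slc38a2 rose by 0.59 ± 0.17 (SD, n = 3; adjusted p = 0.0125 in limma). The call on Slc38a2 thus depends on the weight given to the array that stood apart, which had the opposite sign.

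Slc38a1 encodes SNAT1, a relative of SNAT2 that carries glutamine in dividing cells. Its brightest probe had a log2 intensity of 12.21 to 12.33 in control and 11.46 to 12.21 in palmitate cultures. The groups met at their edges, at the palmitate value of replicate 1. The log2 ratios were -0.11, -0.76, -0.28 and -0.45, with a mean of -0.40 ± 0.28 (SD, n = 4). Limma gave an unadjusted p of 0.0146 and an adjusted p of 0.148 with 4 arrays. Without replicate 1, Slc38a1 fell by 0.50 by this probe (adjusted p = 0.0288 in limma). The other 2 Slc38a1 probes did not show this difference: 1 gave -0.23, -0.11, 0.01 and -0.17 (mean -0.12, adjusted p = 0.400 in limma) and the other -0.06, 0.13, -0.01 and -0.02 (mean 0.01, adjusted p = 0.949). The 95% interval of the last, -0.18 to 0.20, does not reach the mean of the brightest probe. Both dimmer probes were well above background on all 4 arrays, so the ratio of Slc38a1 rests on the probe that is read. Median raw signals of the dimmest probe were only 110.5 to 278.5 intensity units over both channels, against 2546 to 8508 for the brightest. The part of this dimness in its ratios was not tested. Which transcripts each probe detects was not analysed here.

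Slc38a4 encodes SNAT4, a carrier known mainly from liver and placenta. Its single probe was not well above background on any of the 4 arrays, in either channel, and it was not tested. Its median raw signals were 50.0 to 63.0 intensity units over both channels.

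**Figure D2:**
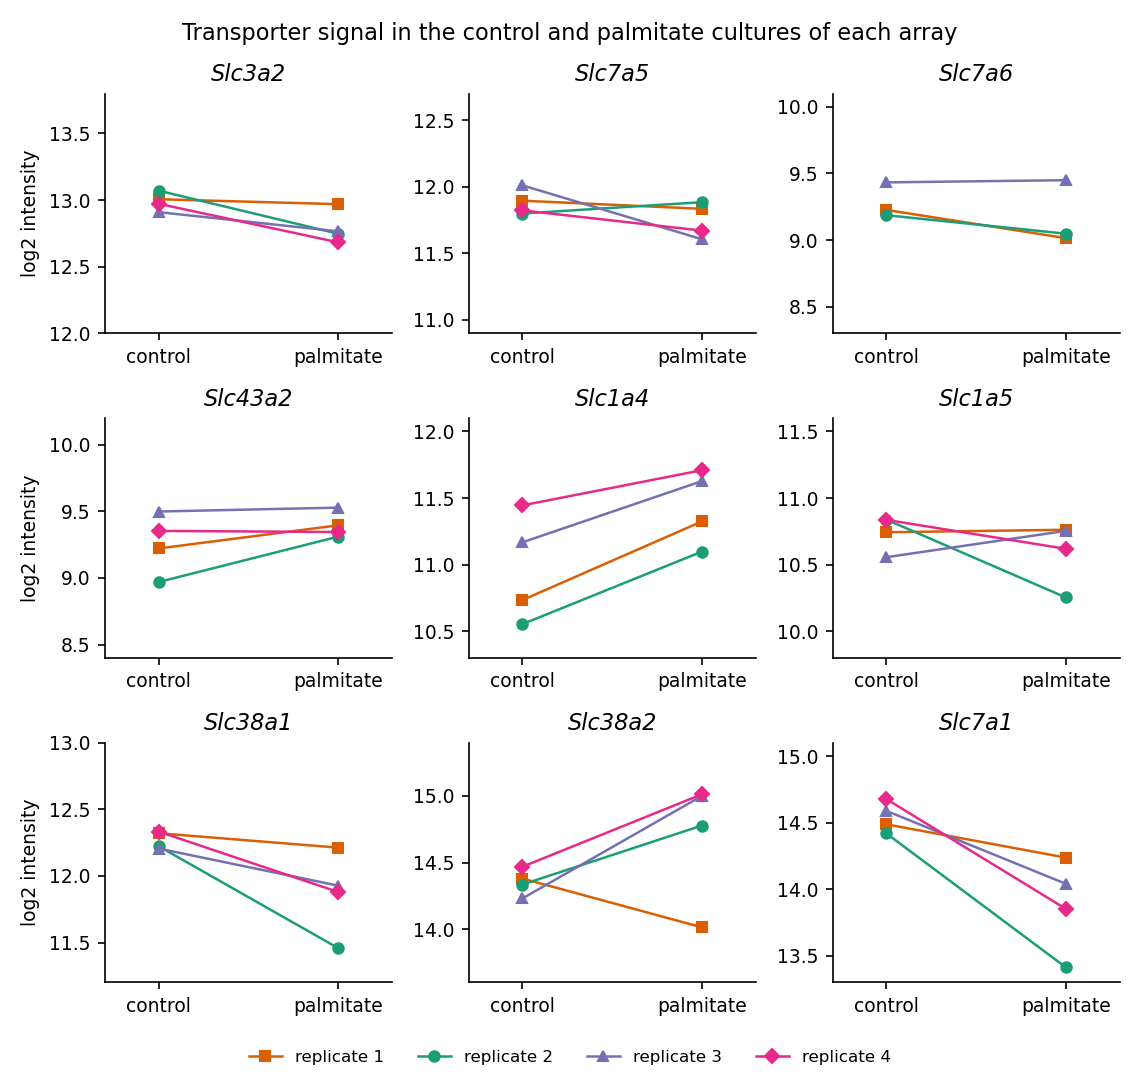
Log2 intensity (vertical axes, each spanning the same number of log2 units) of the brightest probe of each tested transporter in the control and the palmitate culture, with a line for each array; signals were normalized by loess within arrays and the average signals by quantiles between arrays. Lines of Slc1a4 rise and those of Slc7a1 descend on every array, and the replicate 1 line of Slc38a2 runs against the others.

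Slc3a2 encodes the CD98 heavy chain, the shared partner of the Slc7 light chains. Its log2 intensity was 13.01, 13.07, 12.91 and 12.97 in control and 12.97, 12.75, 12.77 and 12.68 in palmitate cultures. The palmitate culture was the lower one on 4 of 4 arrays, while the group ranges overlapped through replicate 1. The log2 ratios of -0.04, -0.32, -0.14 and -0.29 had a mean of -0.20 ± 0.13 (SD, n = 4), 1.15 times lower with palmitate. The 95% interval was -0.41 to 0.01 and the adjusted p 0.242 in limma, and without replicate 1 it was 0.0974. A difference of this size was not resolved by 4 arrays.

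Slc7a5 encodes LAT1, the light chain that exchanges glutamine for leucine and other large neutral amino acids. Its brightest probe had a log2 intensity of 11.80 to 12.01 in control and 11.61 to 11.88 in palmitate cultures. The log2 ratios of this probe were -0.06, 0.08, -0.40 and -0.15, with a mean of -0.13 ± 0.21 (SD, n = 4; adjusted p = 0.472 in limma). The dimmer probe gave 0.42, -0.25, -0.33 and -0.03, a mean of -0.05 ± 0.34, so the probes differed most on replicates 1 and 2. The intervals were -0.38 to 0.11 and -0.38 to 0.28, and neither probe passed the test without replicate 1.

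Slc7a6 encodes y+LAT2, a light chain that releases arginine in exchange for glutamine and sodium. It was measured on 3 arrays only, because the single spot on replicate 4 was marked as an outlier by the scanner software. Log2 ratios were -0.21, -0.14 and 0.02, with a mean of -0.11 ± 0.12 (SD, n = 3; adjusted p = 0.548 in limma). The spot left out had processed signals of 81515 (control) and 34096 (palmitate), against 225.8 to 400.1 on the other arrays. Kept, it would give -2.16 on replicate 4 and a mean of -0.62 ± 1.03.

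Slc43a2 encodes LAT4, which lets leucine, phenylalanine and methionine leave or enter without a heavy chain. Its log2 intensity was 8.97 to 9.50 in control and 9.31 to 9.53 in palmitate cultures, with overlap. The log2 ratios were 0.17, 0.34, 0.03 and -0.01, a mean of 0.13 ± 0.16 (SD, n = 4; adjusted p = 0.421 in limma). The interval was -0.09 to 0.35. Slc7a5, Slc7a6, Slc43a2 and the heavy chain gene Slc3a2 therefore gave no call with 4 arrays or without replicate 1. The largest differences that their intervals hold, -0.41 for Slc3a2 and -0.38 for Slc7a5, are smaller than the mean of Slc7a1. Both lie within the interval of Slc7a1, -0.98 to -0.33.

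Over the 9 tested genes the median of the mean log2 ratios was -0.13, with 6 below 0, against a median of 0.00 over all 13712 genes, of which 49.8% lay below 0. The median of the transporters on each array was -0.06, -0.14, 0.02 and -0.18, so it was below 0 on 3 arrays. These arrays compare equal amounts of labelled RNA, and a change in the RNA content of the cells would not be seen. None of the 14 transporter probes was saturated on any array.

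**Figure D3:**
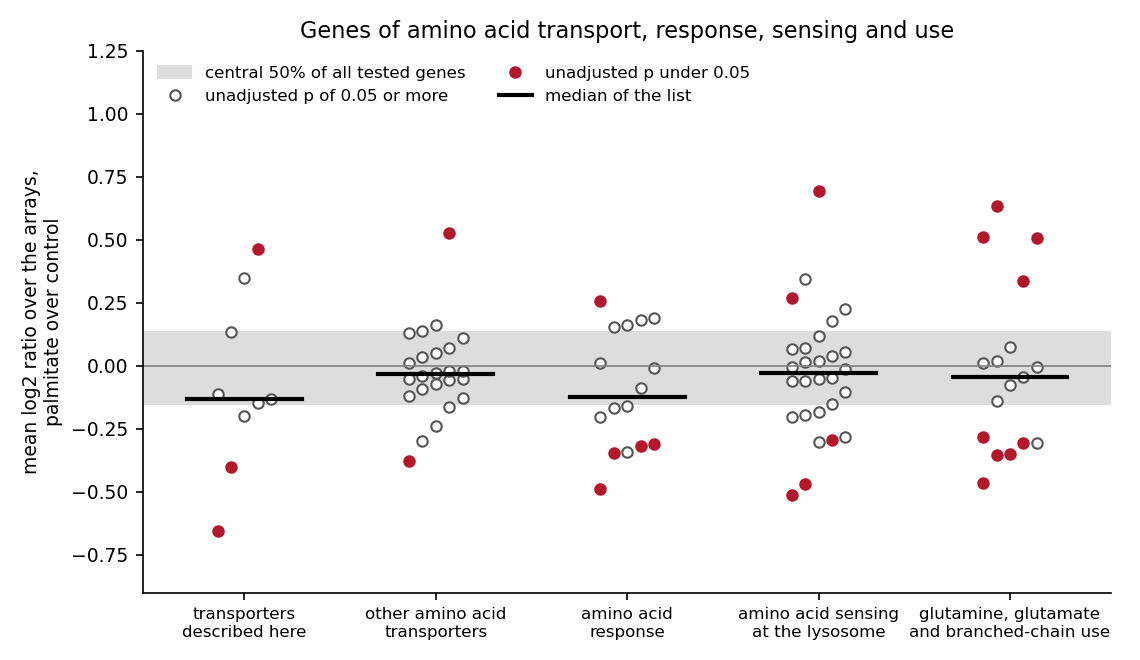
Mean log2 ratio of palmitate over control (vertical axis) of each tested gene, by its brightest probe, in 5 lists of amino acid genes; filled points have an unadjusted p under 0.05 in limma, lines mark list medians, and the grey band holds the central 50% of all tested genes. Points past that limit lie on both sides of 0 in every list, and list medians lie between -0.13 and -0.03.

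Of 44 other amino acid transporters on the array, 24 were tested, 8 were well above background on some arrays only, and 12 on none. At an unadjusted p under 0.05, 1 was higher and 1 lower (8.33% of the 24, against 24.2% of all genes), and the median log2 ratio was -0.03. The higher one was Slc7a11 (xCT), the cystine and glutamate exchanger that also binds the CD98 heavy chain, with log2 ratios of 0.67, 0.59, 0.63 and 0.21 (mean 0.53 ± 0.21, adjusted p = 0.118 in limma and 0.0303 without replicate 1). It was higher on 4 of 4 arrays, as was Slc1a4. Another partner of the heavy chain, the light chain gene Slc7a7, gave a mean of -0.03 ± 0.12, and Slc7a8 was too dim to be tested. The lower one was Slc1a6, a glutamate carrier of the Slc1 family, at -0.38 ± 0.07. Slc38a6 and Slc6a20a followed by p, with means of -0.16 and -0.24, and did not pass. Of the lysosomal carriers, Slc38a9 had a mean of 0.14 ± 0.12 and Slc36a1 of -0.13 ± 0.22 by its brightest probe and of 0.08 by the other. The taurine carrier Slc6a6 had 0.01 ± 0.27.

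All 16 genes of the amino acid response were tested, of which 1 was above and 4 below the control at the unadjusted limit of 0.05 (31.3%, against 24.2% of all genes), with a median of -0.12. Without replicate 1, 4 fell and 0 rose at the adjusted p, against 9.84% and 8.76% of all genes. These were Nupr1, Phgdh, Ddit4 and Sesn2, the last named after its values were seen. The dimmer probe of Phgdh did not pass (adjusted p = 0.0950 in limma without replicate 1) and had a mean of -0.20 over 4 arrays. Asns and Ddit3, known ATF4 targets, had means of -0.09 ± 0.28 and 0.01 ± 0.24 (adjusted p = 0.693 and 0.966 in limma). The 2 probes of Atf4 itself differed: the brightest gave -0.35, -0.34, 0.21 and 0.45 and the other -0.52, -0.73, -0.04 and -0.30. The genes with the lowest unadjusted p over 4 arrays were Nupr1, Eif2ak4, Phgdh and Ddit4, with means of -0.49, -0.34, -0.31 and -0.32, of which Eif2ak4 did not pass without replicate 1 (adjusted p = 0.0625 in limma). Eif2ak4 encodes GCN2, the kinase that senses uncharged tRNA, and Phgdh starts serine synthesis. The mean ratios of transporters known as targets of this response lay above 0 for Slc1a4, Slc7a11 and Slc38a2 and below it for Slc7a1, Slc3a2 and Slc7a5. The intervals of Slc38a2, Slc3a2 and Slc7a5 include 0, so their signs are not settled. The part of ATF4 in these values was not tested.

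Of 28 tested genes of amino acid sensing at the lysosome, 2 lay higher with palmitate and 3 lay lower at the unadjusted limit. This was 17.9%, below the 24.2% of all genes, and the median was -0.03. Mlst8, a subunit of the mTOR complexes, and Lamtor5, part of the lysosomal anchor of mTORC1, had means of -0.51 and -0.47, and Fnip2, a folliculin partner, had 0.69. Depdc5, of the GATOR complex, gave 0.27 by its brightest probe, and its other probes gave -0.10 to 0.01. Of 17 tested genes of glutamine, glutamate and branched-chain amino acid use, 4 were higher and 5 lower (52.9%, against 24.2% of all genes). Glul, which makes glutamine from glutamate and ammonia, had log2 ratios of 0.57, 0.97, 0.68 and 0.32 (mean 0.64 ± 0.27, adjusted p = 0.118 in limma and 0.0198 without replicate 1). Bckdk and Dbt, also of this list, had means of -0.46 and -0.35.

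**Figure D4:**
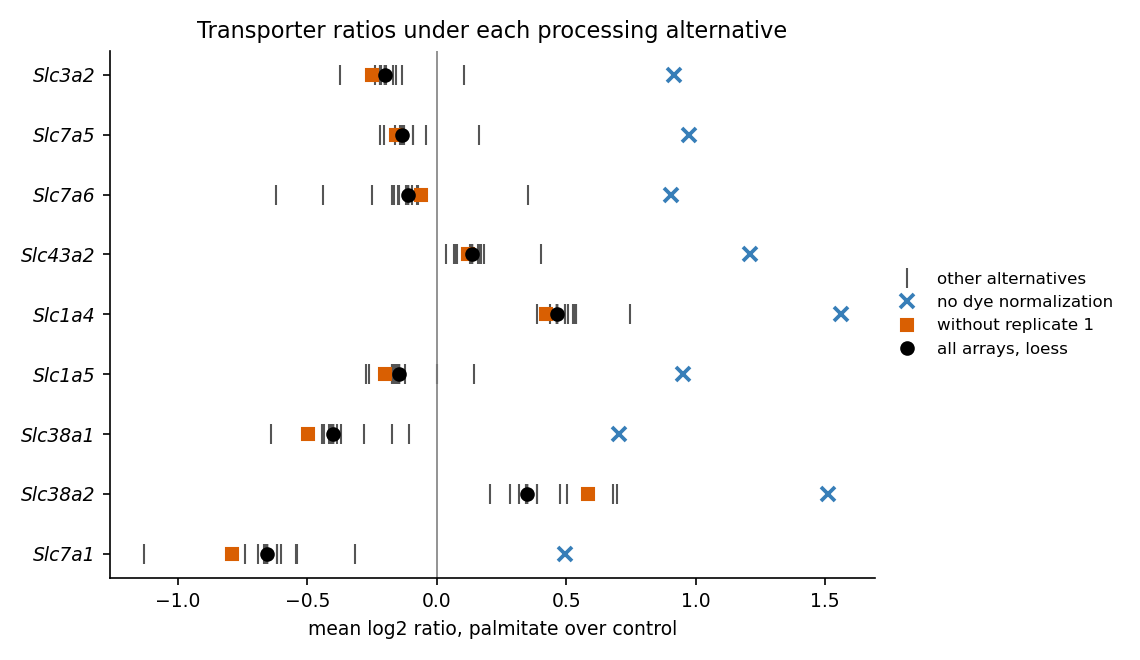
Mean log2 ratio (horizontal axis) of each tested transporter under the main processing (circle), without replicate 1 (square), without dye normalization (cross) and under all other alternatives (bars). Slc1a4, Slc38a2 and Slc43a2 stay above 0 in every alternative in which they were measured, and every cross lies above 0, in a setting in which the median of all tested probes was 0.99.

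The direction of Slc1a4 and Slc38a2 was kept in 23 of 23 alternatives, and that of Slc7a1 and Slc38a1 in 22 of 23. Many of these changed only the filter or the test and left the ratio as it was, so they could not change its direction. The processed signals and the deposited table gave the same ratios as each other for these genes. They were 0.539 for Slc1a4, 0.387 for Slc38a2, -0.619 for Slc7a1 and -0.4 for Slc38a1. Slc7a1 and Slc38a1 changed sign only in the setting without dye normalization. There the median of all tested probes was 0.99 and Slc7a1 had a log2 ratio of 0.50. Relative to that median Slc7a1 lay at -0.49 and Slc38a1 at -0.29, while Slc1a4 lay at 0.57 and Slc38a2 at 0.52. Centring each array on its median in place of loess put the median of the tested probes at 0.18 and gave Slc1a5, Slc3a2, Slc7a5 and Slc7a6 values of 0.14, 0.11, 0.16 and 0.35. Relative to that median Slc1a5 lay at -0.04, Slc3a2 at -0.07 and Slc7a5 at -0.01, and Slc7a6 at 0.17.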

How the data were processed

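The authors labelled total RNA with cyanine-3 (control) or cyanine-5 (palmitate) and read the slide with Agilent Feature Extraction (version 10.7.3.1 in the submitters' processing notes). The authors deposited uncorrected intensity values (the median of each spot and of its local background) and processed intensity values, from which Feature Extraction had subtracted the background and removed the dye trend. The deposited ratio column is on a log10 scale (cyanine-5 over cyanine-3). The deposited table of 39485 probes holds log2 ratios of palmitate over control, which matched those computed from the processed signals with differences of at most 3e-06.

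Here the median signals were corrected by normexp (offset 50) and dyes normalized by loess within each array using limma (version 3.58.1, with statmod 1.5.0 and R 4.3.3). Spots marked as outliers were left out and spots of a probe averaged. Probes entered the test if 1 channel or both exceeded the background clearly on every one of the 4 arrays (24169 of 39429 probes). Limma tested whether the mean log2 ratio differed from 0, with p-values adjusted by Benjamini-Hochberg over all tested probes, so that each array pairs its 2 cultures. Probes were named through RefSeq accessions, which named 26055 probes and left 13374 unnamed. For each gene the brightest probe was used, whatever its ratio. The limma step was tested on simulated log2 ratios of independent probes, with the spread of the arrays other than replicate 1. The simulation did not cover normalization or the departure of replicate 1.

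The transporters and the lists were chosen with earlier results of these data known. Named were all 10 transporters and, from each other list, the 4 tested genes with the lowest unadjusted p and Slc7a11, Slc7a8, Slc7a7, Slc6a6, Slc36a1, Slc38a9, Atf4, Asns, Ddit3 and Glul. The values of 1 gene so chosen are not reported here. Alternatives concerned background, dyes, filters on dim or variable probes, the processed signals and deposited table, the methods' t-test, pairing, the variance model, array weights, the probe used for a gene and leaving out each replicate. Keeping outlier spots was added after the data had been seen. Protein sequences were not used here.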

Additional observations from a re-analysis of the deposited data

Results flagged for a closer look

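Among the 45 transporter and other named probes measured on 4 arrays and examined for an array far from the other 3, 2 had one, and about 1 in 20 groups of 4 would by chance. The Slc1a6 log2 ratio was -0.271 on replicate 1, against -0.422 to -0.398 on the other arrays, with the same sign on all 4. The Asns log2 ratio of replicate 3 was -0.512, while the other arrays gave 0.031 to 0.094. None of the 12 transporter probes measured on 4 arrays stood out in this way, although the Slc38a2 value of replicate 1 had the opposite sign.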

How the results depend on the processing

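Of the single-transporter values, 10 reversed. Median centring in place of loess gave 0.143 for Slc1a5, 0.105 for Slc3a2, 0.163 for Slc7a5 and 0.351 for Slc7a6, in a setting in which the median of all tested probes was 0.178. Relative to it these were -0.035, -0.0727, -0.0149 and 0.173, so that of the 4 only Slc7a6 changed side. No dye normalization gave 0.953 for Slc1a5, 0.702 for Slc38a1, 0.915 for Slc3a2, 0.495 for Slc7a1, 0.973 for Slc7a5 and 0.903 for Slc7a6. In that setting all probes had a median of 0.988, relative to which each of these 6 lay below 0, 26 probes were lower and 20322 higher, 11 transporter probes passed either p limit (84.2% of all probes passed the adjusted one), and the median of the transporters was 0.953. With median centring 0 transporter probes had an unadjusted p under 0.05 and the transporter median was 0.163.

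Counts over all probes of 0 lower and 0 higher at the adjusted p and a fold of 1.6 became 4 higher with the median background subtracted, 13 higher with the processed signals and with the deposited table, 1 higher with the mean of a gene's probes and 2 higher with the brightest probe alone. They became 199 lower and 140 higher when probes with a coefficient of variation of 50% or more were dropped, with 2 transporter probes past the adjusted p (Slc1a4 and Slc7a1; 9.15% of all probes passed), and 494 lower and 338 higher with array weights, with 4 transporter probes past it and 5 at the unadjusted limit (13.8% of all probes passed the former). The methods' t-test, which is unpaired, gave 1 transporter probe at an unadjusted p under 0.05 (5.59% of all probes) and 0 after adjustment. After a shift of every channel to the 75th percentile it gave 1482 probes lower and 110 higher and 1 transporter probe past the adjusted p (11.3% of all probes). This was a dimmer probe of its gene. The lowest adjusted p of a brightest transporter probe in this t-test was 0.0978, for Slc7a1. Quantile normalization and scaling between arrays left 1 transporter probe at an unadjusted p under 0.05 (6.82% of all probes). Without the pairing of cultures by array (no replicate block), limma called 11 probes lower and 15 higher, and 0 transporter probes passed.

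Leaving out each replicate gave 0 to 753 probes lower, 0 to 555 higher, 0 to 4 transporter probes past the adjusted p and 2 to 5 at the unadjusted limit, the highest values all without replicate 1, and a transporter median of -0.175 to -0.0976. Why replicate 1 stood apart was not tested. The background flags limit the dim probes, and Slc38a4 could not be measured.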
